A study of Mus musculus with 4 samples.

Results

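The growth arrest and DNA damage genes Gadd45a, Gadd45b and Gadd45g, the cyclin-dependent kinase (CDK) inhibitors Cdkn1a (p21) and Cdkn1b (p27), and the p53 genes Trp53, Mdm2 and Ccng1 were followed in the dentate gyrus (DG) of mice after 2 antidepressant treatments. Every probe set that the platform annotation gives to 1 of these 8 genes was taken, which was 14 of the 22690 probe sets on the array and covered 7 of the 8 genes, among 12393 genes with a probe set of their own. Trp53 had no probe set under its name in the annotation used and is not analysed here. A probe set is the group of short probes that together measure 1 transcript, and its signal is a linear intensity. Of the 14 probe sets, 13 averaged a signal of 50 or more across the arrays and are called measured, as were 13422 probe sets in all.

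Male mice labelled C57Bl/6 (C57BL/6J or C57BL/6N in the study's methods), bought at 8 weeks of age, received electroconvulsive stimulation (ECS) 11 times over 3 weeks under isoflurane, or the same handling and anesthesia without the shock (sham). Other mice drank the selective serotonin reuptake inhibitor fluoxetine at 22 mg/kg per day for 28 days, or vehicle, which the label calls water. The fluoxetine solution also held saccharin, and the sources do not say whether the vehicle did. The sham and ECS labels give 6 h after the last session, whereas the study's methods give 24 h for these mice. Fluoxetine-treated mice entered the pool because their mossy fiber synapses showed little frequency facilitation (n = 3). The RNA of each group was put together on 1 array, so there are 4 arrays, no replicate, no SD and no p-value, and each difference below is one between 2 pools. A difference of at least 1.5-fold (0.58 on the log2 scale) is called higher or lower. Signals are used as deposited and have no common scale. The median signal over measured probe sets was 219 for ECS, 236 for sham, 365 for fluoxetine and 335 for vehicle. The median log2 ratio over all of them was -0.10 for ECS over sham and 0.12 for fluoxetine over vehicle, and a ratio is also given after centring each array on its own median where centring changes a call.

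The GADD45 proteins are small acidic nuclear proteins that cells make under stress. They bind CDK1, PCNA and p21, activate the MAP kinase kinase kinase MAP3K4 (MTK1) and take part in DNA repair and active DNA demethylation. In the DG, Gadd45b is known as an activity-induced immediate early gene that promotes demethylation at growth factor gene promoters and the proliferation of neural progenitors. p21 and p27 hold CDKs in check. Cdkn1a is the classic target of the transcription factor p53, and Mdm2 and Ccng1 are p53 targets as well. MDM2 is the ubiquitin ligase that removes p53, and cyclin G1 recruits a phosphatase to MDM2.

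The promoters of the 4 genes that were higher with both treatments are shown first, because the members split into those that differed and those that did not. Each sequence is the 250 bases before the gene's first start site in RefSeq (GRCm38.p6), 5′ to 3′ on the strand of the gene. All 8 genes matched an entry in the promoter table, and Cdkn1a had a second start site, which gives 9 windows. Capitals mark the E-box CACGTG, the TATA box TATAAA and the octamer ATTTGCAT on either strand, and in Cdkn1a the p53 response element.
Gadd45a (chr6:67037408-67037657, minus strand): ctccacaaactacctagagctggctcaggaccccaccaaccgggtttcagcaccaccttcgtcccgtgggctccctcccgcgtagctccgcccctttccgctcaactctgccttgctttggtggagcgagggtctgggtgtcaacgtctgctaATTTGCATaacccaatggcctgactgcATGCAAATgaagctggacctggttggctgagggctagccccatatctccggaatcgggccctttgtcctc
Gadd45b (chr10:80929841-80930090, plus strand): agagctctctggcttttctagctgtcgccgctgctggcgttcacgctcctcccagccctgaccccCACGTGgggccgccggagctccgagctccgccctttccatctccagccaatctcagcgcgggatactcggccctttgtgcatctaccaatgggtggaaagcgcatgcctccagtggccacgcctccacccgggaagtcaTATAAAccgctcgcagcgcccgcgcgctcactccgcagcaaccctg
Gadd45g (chr13:51846425-51846674, plus strand): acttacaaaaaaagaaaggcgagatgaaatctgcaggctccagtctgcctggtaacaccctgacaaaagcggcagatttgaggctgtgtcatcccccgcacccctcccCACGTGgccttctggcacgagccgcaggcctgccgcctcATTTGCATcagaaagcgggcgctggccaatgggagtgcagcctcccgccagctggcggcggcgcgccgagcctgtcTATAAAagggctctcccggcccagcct
Cdkn1a (chr17:29090729-29090978, plus strand): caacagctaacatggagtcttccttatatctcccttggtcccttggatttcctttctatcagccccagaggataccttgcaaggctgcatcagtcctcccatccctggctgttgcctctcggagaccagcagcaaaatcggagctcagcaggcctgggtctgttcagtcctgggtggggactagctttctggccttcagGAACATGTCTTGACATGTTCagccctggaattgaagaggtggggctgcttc
Gadd45b and Gadd45g were the members whose windows held the E-box, starting at position -185 in Gadd45b and -142 in Gadd45g relative to the start, and 6.02% of the 32851 promoter windows of the table held it. Both also held a TATA box, at -46 and -27, as did 12.4% of windows, the Trp53 window among them. The octamer stood at -97 and -70 in Gadd45a and at -103 in Gadd45g and was found in 1.60% of windows. The Cdkn1a window held a p53 response element with adjacent half-sites at -51, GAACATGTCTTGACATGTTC, with 1 mismatch to the consensus outside the core of the half-sites. Only 15 windows (0.0457%) met that criterion, which was chosen after the sequence had been seen, and 3 windows (0.00913%) met the consensus with no mismatch. The window of the second Cdkn1a start site held no such element and no p53 half-site. Besides the first Cdkn1a window, the Gadd45a, Trp53, Mdm2 and Ccng1 windows each held a p53 half-site, as did 7.13% of all windows. Neither the cyclic AMP response element TGACGTCA (1.55% of windows) nor the AP-1 site TGANTCA (6.75%) was in any member window, both strands searched. The CCAAT box CCAAT (33.8% of windows) was in the windows of Gadd45a, Gadd45b, Gadd45g, Cdkn1b, Trp53, Mdm2 and Ccng1. The GC box GGGCGG (32.7%) was in those of Gadd45a, Gadd45b, Cdkn1b, Mdm2 and the second Cdkn1a start site. Neither box, left in lower case above, was confined to the members that were higher with both treatments. These matches describe the letters and name no bound factor.

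Gadd45a, Gadd45b, Gadd45g and Cdkn1a were each higher with both treatments, whereas Cdkn1b, Mdm2 and Ccng1 differed by less than 1.5-fold in both comparisons. In probe sets, 6 of the 13 measured were higher with ECS, where 3.81% of all measured probe sets were higher and 6.51% lower, and none of the 13 was lower. The same 6 were higher with fluoxetine, where 8.64% of all measured probe sets were higher and 3.11% lower. In all, 2.61% of measured probe sets were higher and 1.66% lower in both comparisons. The signal filter averages all 4 arrays, treated ones included. The Cdkn1a probe set 1421679_a_at had control signals of 43.3 and 36.9 and passed it only through its treated pools. Its calls as higher thus follow in part from the filter. With 1 probe set per gene, the brightest, 4 of 7 member genes were higher with ECS (3.84% of 7935 genes), with fluoxetine (8.49%) and with both (2.79%). The median log2 ratio of the 13 probe sets was 0.40 with ECS and 0.35 with fluoxetine. These medians fall between the 2 kinds of member and describe neither.

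**Figure D1:**
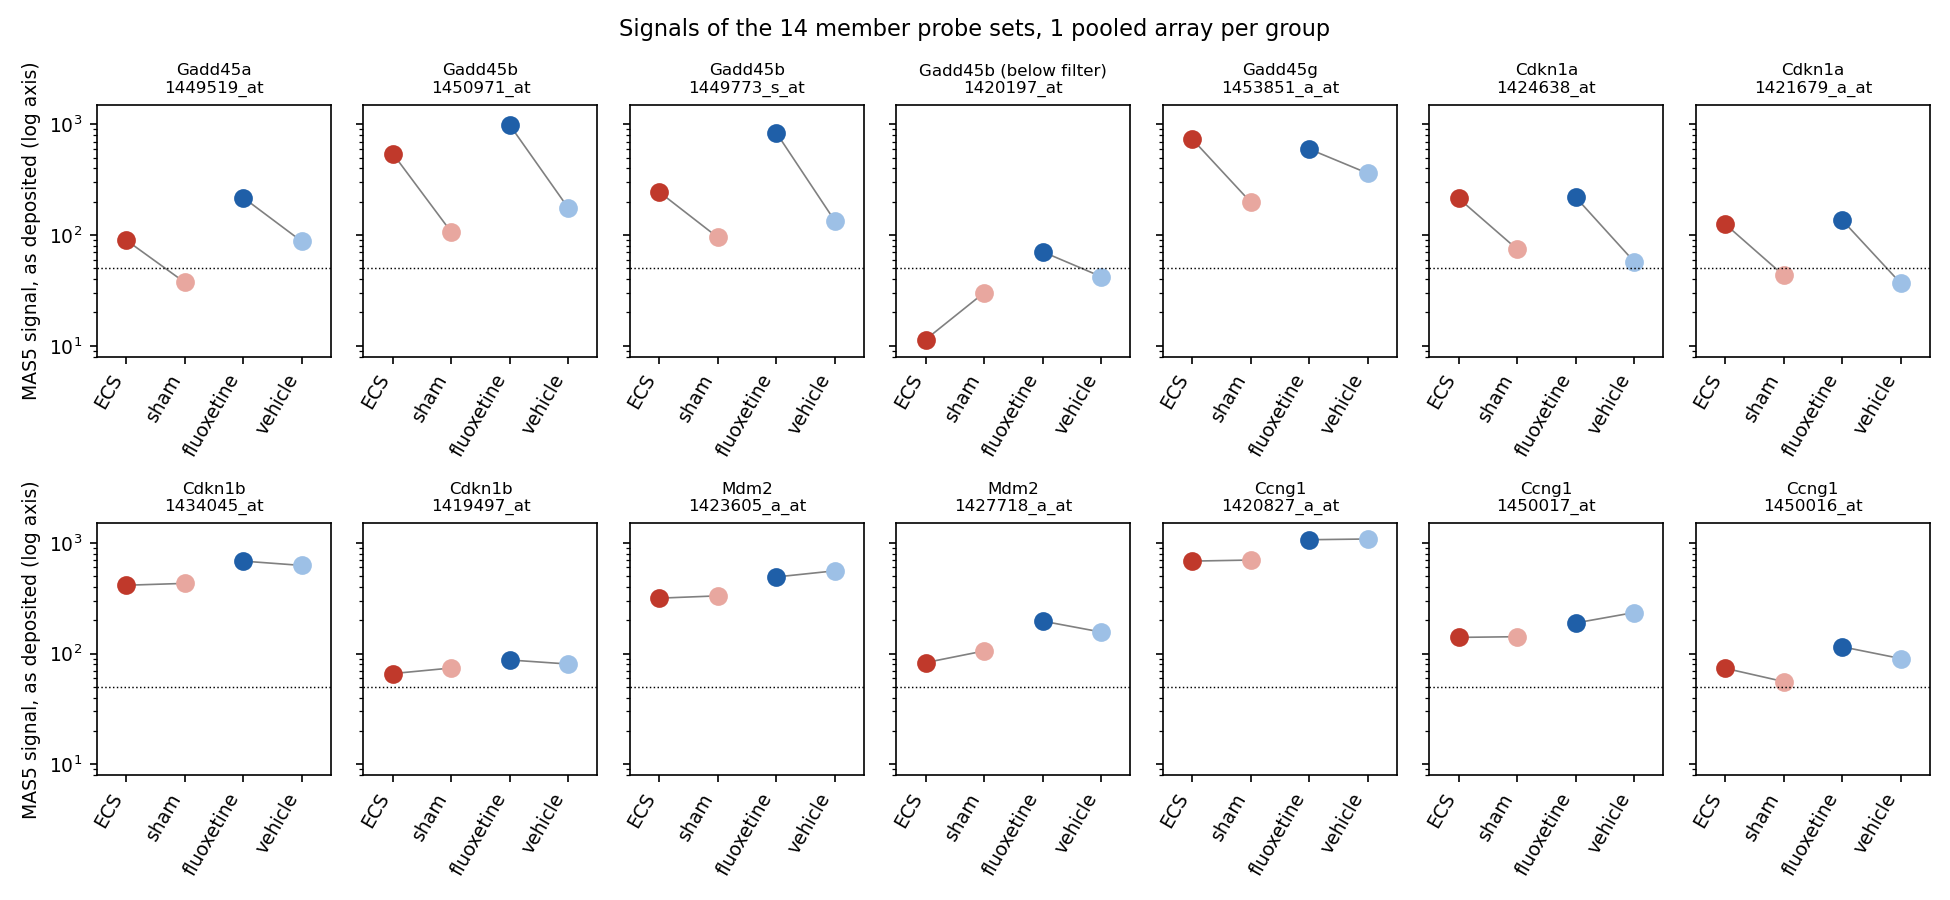
Signals of the 14 member probe sets as deposited (y axis, linear intensities on a log axis, no common scale between arrays) on the ECS, sham, fluoxetine and vehicle arrays, with a line joining each treated pool to its control and a dotted line at a signal of 50. The 6 measured probe sets of Gadd45a, Gadd45b, Gadd45g and Cdkn1a lie higher in the treated pool of each pair. Those of Cdkn1b, Mdm2 and Ccng1 differ by less than 1.5-fold in each pair.

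On its brightest probe set (1450971_at), Gadd45b had a signal of 545.7 in the ECS pool and 106.7 in the sham pool, a 5.11-fold difference (log2 ratio 2.35). It had 988.7 in the fluoxetine pool and 176.3 in the vehicle pool, a 5.61-fold difference (log2 ratio 2.49). Both treated pools lay above both control pools, and the ratios ranked 29 and 33 from the highest of the 13422 measured probe sets. The sham and vehicle pools of Gadd45b differed by -0.22 on the log2 scale after centring. The spread of that control ratio over the 500 probe sets nearest in signal was 0.17 (scaled median absolute deviation), which is the only spread between untreated pools that the series holds and includes their different handling.

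The second Gadd45b probe set (1449773_s_at) had 245.4 in the ECS pool against 95.5 in the sham pool, and 844.4 in the fluoxetine pool against 135.3 in the vehicle pool. The fluoxetine ratio of 6.24-fold was near that of the first probe set, whereas the ECS ratio of 2.57-fold was lower than the 5.11-fold there. The log2 ratio with ECS was thus 1.28 below that with fluoxetine in this probe set (difference of log2 ratios -1.28, and -1.05 after centring), against -0.13 in the first. The suffix of its name marks a probe set whose probes can also bind other transcripts. The last Gadd45b probe set (1420197_at) stayed under the signal filter, with 11.4 in the ECS pool, 30.2 in the sham pool, 70.7 in the fluoxetine pool and 42.2 in the vehicle pool. It was the one member probe set that was lower with ECS as deposited (log2 ratio -1.41), but both signals lay below 50, and with signals below 50 taken as 50 its ratio was 0.00. With fluoxetine the same probe set was higher (log2 ratio 0.74, and 0.62 after centring). With its vehicle signal taken as 50, that ratio was 0.50, under the size rule.

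Gadd45g, the family member known from cytokine-induced and developmental expression, had the stronger difference with ECS. Its probe set (1453851_a_at) had 737.9 in the ECS pool and 198.7 in the sham pool, a 3.71-fold difference (log2 ratio 1.89). It had 599.8 in the fluoxetine pool and 362.1 in the vehicle pool, a 1.66-fold difference (log2 ratio 0.73) that lay just past the size rule. After quantile normalization of the arrays the fluoxetine ratio was 0.58, just under it, and after centring it was 0.60. The ECS ratio exceeded the fluoxetine ratio by 1.16, and by 1.40 after centring, the reverse of the second Gadd45b probe set. The control pools of Gadd45g differed by -0.36 after centring, sham below vehicle, where the spread at that signal was 0.18.

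Gadd45a, the family member that p53 induces after DNA damage, was higher by a similar factor with both treatments. Its probe set (1449519_at) had 90.0 in the ECS pool and 37.4 in the sham pool (log2 ratio 1.27), and 218.2 in the fluoxetine pool and 87.8 in the vehicle pool (log2 ratio 1.31). The 2.41-fold and 2.49-fold differences were alike in size, but the ECS pool and the vehicle pool had nearly the same deposited signal. The sham pool lay below the vehicle pool by 0.73 after centring (ratio -0.73, spread 0.28). With the sham signal taken as 50, the ECS ratio was 0.85. With ECS set against the vehicle pool and the ratio centred on its median over measured probe sets, it was 0.63, and fluoxetine against sham gave 1.92.

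Cdkn1a, which encodes the CDK inhibitor p21, was higher with both treatments on each of its probe sets. The probe set 1424638_at had 214.9 in the ECS pool and 74.6 in the sham pool (2.88-fold, log2 ratio 1.53), and 220.5 in the fluoxetine pool and 57.7 in the vehicle pool (3.82-fold, log2 ratio 1.93). The probe set 1421679_a_at had 126.0 against 43.3 for ECS over sham (2.91-fold) and 137.1 against 36.9 for fluoxetine over vehicle (3.72-fold). Both control signals of the second probe set lay below 50, and with a floor there its log2 ratios were 1.33 and 1.46. That probe set passed the signal filter only through its treated pools. Both treated pools thus lay above both controls in each probe set. The treated pools were close to each other only in deposited signal. As multiples of the array median, ECS and fluoxetine stood at 0.980 and 0.604 in the first probe set and at 0.575 and 0.375 in the second. The controls themselves were apart, with sham above vehicle by 0.87 and 0.73 after centring, where the spreads were 0.25 and 0.32. Set against the vehicle pool, the ECS ratio of the first probe set was 2.49 after centring on the median ratio over measured probe sets. Set against the sham pool and centred likewise, its fluoxetine ratio was 0.93, still past the size rule.

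Cdkn1b, which encodes p27, differed little in any pair. Its brighter probe set (1434045_at) had 414.5 in the ECS pool and 430.9 in the sham pool, and 684.6 in the fluoxetine pool and 625.8 in the vehicle pool. The log2 ratios were -0.06 and 0.13, and 0.05 and 0.00 after centring. The dimmer probe set (1419497_at) had 66.0 against 74.1 with ECS and 87.6 against 80.5 with fluoxetine. As multiples of each array's median signal, Cdkn1b stood at 1.89, 1.82, 1.87 and 1.87 in the ECS, sham, fluoxetine and vehicle pools, while Cdkn1a stood at 0.980, 0.316, 0.604 and 0.172.

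**Figure D2:**
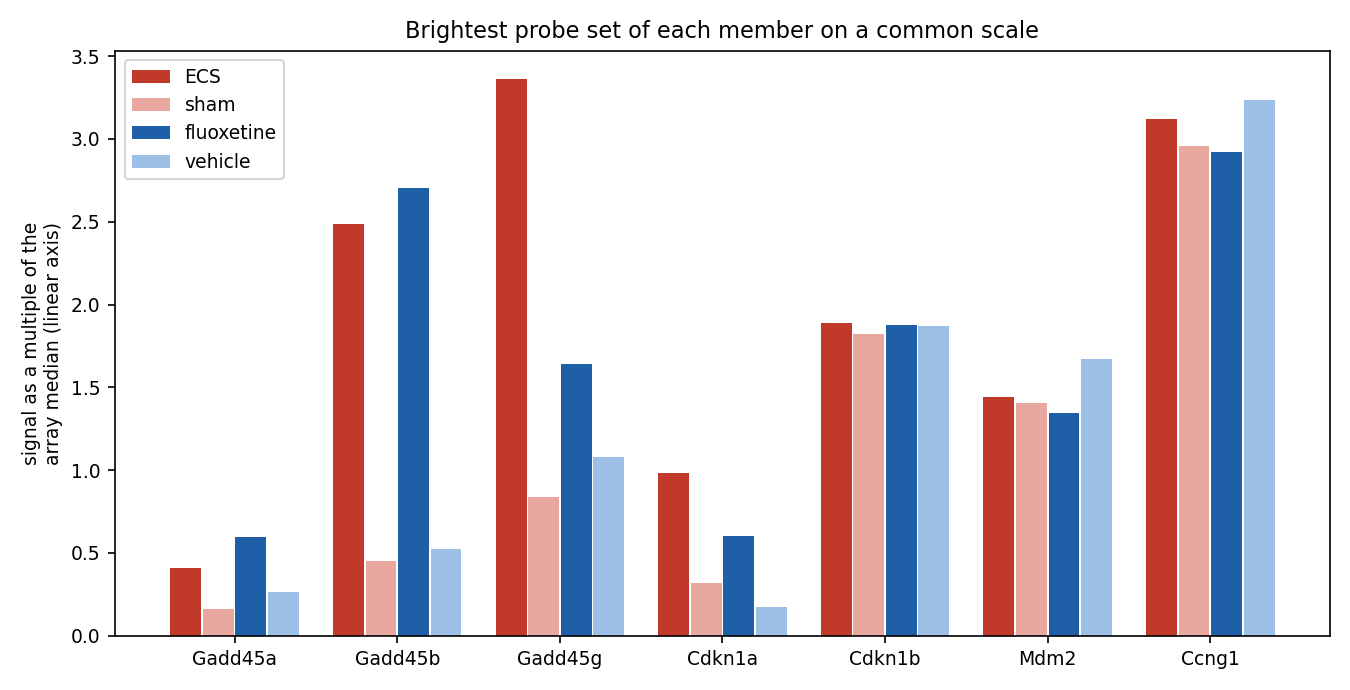
Bars give the signal of each member's brightest probe set as a multiple of the median signal of its array (y axis, linear, from 0) for the ECS, sham, fluoxetine and vehicle pools, 1 array each with no error bar possible. Within a gene, Gadd45b reaches 2.49 and 2.71 in the ECS and fluoxetine pools against 0.451 and 0.526 in the sham and vehicle pools, and Cdkn1b stays between 1.82 and 1.89. Heights of different genes come from different probes and cannot be compared.

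Mdm2 and Ccng1, the other p53 targets among the members, were not past 1.5-fold in any probe set. The brighter Mdm2 probe set (1423605_a_at) had 316.8 in the ECS pool and 332.3 in the sham pool, and 492.2 in the fluoxetine pool and 559.2 in the vehicle pool (log2 ratios -0.07 and -0.18). The dimmer one (1427718_a_at) had 82.9 against 105.7 with ECS and 196.5 against 156.6 with fluoxetine, and the ratios of -0.35 and 0.33 differ in sign. The brightest Ccng1 probe set (1420827_a_at) had 684.7 against 699.9 with ECS and 1068.0 against 1084.6 with fluoxetine (log2 ratios -0.03 and -0.02). A further Ccng1 probe set (1450017_at) had 140.1 against 142.1 and 189.0 against 234.8. The dimmest (1450016_at) had 73.7 against 55.9 with ECS and 115.3 against 90.3 with fluoxetine, log2 ratios of 0.40 and 0.35. Of the p53 targets among the measured members, Cdkn1a and Gadd45a were thus higher and Mdm2 and Ccng1 were not.

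**Figure D3:**
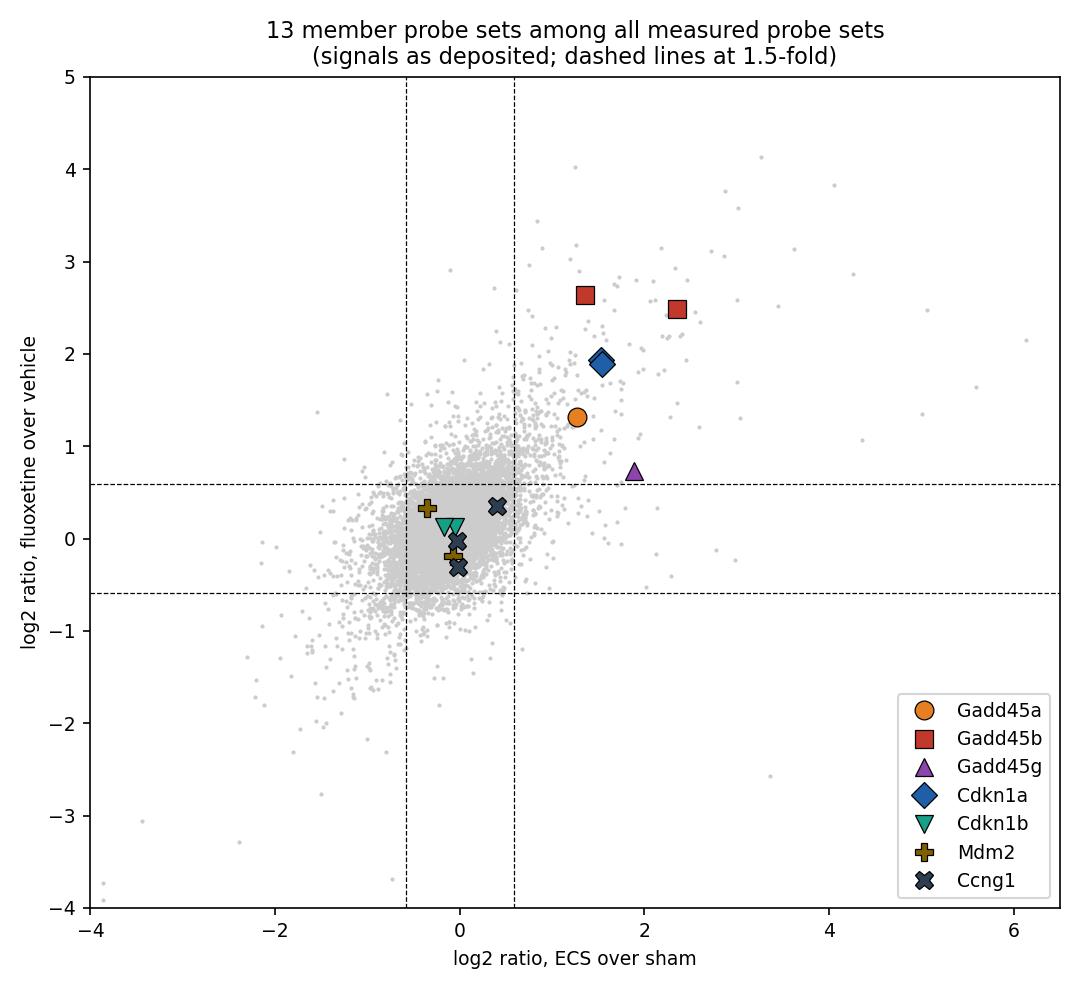
Each point is 1 of the 13422 measured probe sets, with the log2 ratio of ECS over sham on the x axis and of fluoxetine over vehicle on the y axis, and dashed lines at 1.5-fold. The coloured member probe sets fall into a group of 6 in the upper right (Gadd45a, Gadd45b, Gadd45g, Cdkn1a) and a group of 7 near the centre (Cdkn1b, Mdm2, Ccng1), with Gadd45g low on the fluoxetine axis and the second Gadd45b probe set low on the ECS axis.

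The wider p53 response was followed with 32 further p53 target genes, written down with earlier results of these data known, of which 21 were measured. With ECS 4 of the 21 were higher and 0 lower, with a list median of -0.03, against 3.84% higher and 6.47% lower and a median of -0.10 over all 7935 genes. With fluoxetine 3 were higher and 0 lower, with a median of 0.03, against 8.49% higher and 3.26% lower and a median of 0.12. Ier5, Plk2 and Btg2 among them are also known as activity-induced genes. Ier5, an immediate early gene, had 1019.4 in the ECS pool and 462.7 in the sham pool, and 2918.6 in the fluoxetine pool and 820.4 in the vehicle pool. Plk2, the polo-like kinase that acts in synaptic scaling, had 2367.4 against 873.1 with ECS and 2773.6 against 1318.6 with fluoxetine. Sertad1, which binds CDK4, had log2 ratios of 1.45 and 1.32. Btg2, an antiproliferative immediate early gene, was past the size rule with ECS and not with fluoxetine, with 1326.9 in the ECS pool and 270.9 in the sham pool, against 313.4 in the fluoxetine pool and 414.0 in the vehicle pool (log2 ratios 2.29 and -0.40). The other 17 stayed under 1.5-fold in both, among them Bbc3 (Puma), the proapoptotic BH3 protein, with log2 ratios of -0.57 and -0.55 that lay just under the size rule, Zmat3 with 0.03 and 0.03, Phlda3 with -0.12 and 0.20, and Ppm1d, the phosphatase that ends p53 signalling, with -0.08 and 0.30. Those 4 were named after their values were seen. After centring, Bbc3 was past the size rule with fluoxetine (-0.67), which makes 1 of the 21 lower there.

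Of 12 measured genes that act on p53, 0 were higher in either comparison, 3 were lower with ECS (6.47% of all genes) and 1 with fluoxetine (3.26%). Chek2, the checkpoint kinase that phosphorylates p53, was lower in both, with 40.4 in the ECS pool against 102.3 in the sham pool and 57.5 in the fluoxetine pool against 121.5 in the vehicle pool. Atr, the replication stress kinase, and Sirt1, a p53 deacetylase, had log2 ratios of -0.72 and -0.64 with ECS and 0.13 and 0.16 with fluoxetine. After centring the ECS ratio of Sirt1 was -0.53, under the size rule, which leaves 2 lower. The medians of this list were -0.11 and 0.02. The ECS signals of Chek2 and Atr lay below 50, and with a floor at 50 their ECS ratios were -1.03 and -0.54.

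Among 14 measured genes of the MAP kinase branch that GADD45 proteins feed, 1 was higher and 1 lower in the ECS pool, and fluoxetine gave 3 higher and 3 lower, with medians of -0.01 and 0.10. Over all genes the shares were 3.84% higher and 6.47% lower with ECS, and 8.49% higher and 3.26% lower with fluoxetine. Map3k4, the kinase that GADD45 proteins bind and activate, was lower in both, with 153.4 in the ECS pool against 259.3 in the sham pool and 188.3 in the fluoxetine pool against 439.8 in the vehicle pool (log2 ratios -0.76 and -1.22, control spread 0.20). Mapk12 (p38 gamma) was higher in both, with log2 ratios of 1.13 and 0.98. Mapk11 (p38 beta) had 0.18 with ECS and 1.13 with fluoxetine, and the p38 substrate kinase Mapkapk2 had -0.26 and 0.62, the fluoxetine ratio being 0.49 after centring, which leaves 2 higher. Mapk10, the neuronal JNK, had 0.32 and -0.83, but its sham and vehicle pools already differed by -1.61. Map3k4 and Gadd45b thus lay on opposite sides of their controls in both pairs.

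The counts of the remaining lists stand against the same shares over all genes. Of 9 measured genes of DNA demethylation and base excision repair, the processes in which GADD45 proteins take part, 0 were higher and 1 was lower in each comparison, with medians of -0.24 and 0.04. The one was Mbd4, the thymine glycosylase of methylated sites, with log2 ratios of -0.71 and -0.70. After centring 2 of the 9 were lower with fluoxetine, the second being the repair scaffold Xrcc1 (-0.58 as deposited, -0.70 centred). Both of the other measured CDK inhibitors, Cdkn2c and Cdkn2d, stayed under 1.5-fold. Of 14 measured cyclins, CDKs and partners, 1 was lower with ECS (Ccne2, -1.19, with an ECS signal of 24.0, and -0.13 with signals below 50 taken as 50) and 1 higher with fluoxetine (Ccne1, 0.92). Of 11 measured genes of p27 turnover and FoxO signalling, 2 were higher and 2 lower with ECS, and 0 higher and 1 lower with fluoxetine. They included Sgk1, the glucocorticoid-regulated kinase (1.29 with ECS and 0.27 with fluoxetine), Skp2, the F-box protein that marks p27 for degradation (-1.18 and 0.09), its cofactor Cks1b (0.65 and 0.43), and Foxo1, a transcription factor that induces p27 and Gadd45a (-0.63 and -0.84). The ECS ratio of Foxo1 was -0.52 after centring, which leaves 1 lower, and Skp2 had an ECS signal of 41.5 and a ratio of -0.91 with the floor.

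Of 18 measured other growth arrest and stress genes, 1 was higher and 1 lower in each comparison, with medians of -0.12 and 0.05. Atf3, the stress-induced transcription factor, had 128.6 in the ECS pool and 15.9 in the sham pool, and 73.0 in the fluoxetine pool and 6.1 in the vehicle pool. Both control signals were below 50, and with a floor there the log2 ratios were 1.36 and 0.55, with the fluoxetine ratio under the size rule. Atf3 thus passed the signal filter only through its treated pools. Gas7 was lower with ECS (-0.74), and Ddit4l, an mTOR inhibitor, was lower with fluoxetine (-0.64). Hspa5, the endoplasmic reticulum chaperone BiP, had 0.58 with ECS as deposited, just under the size rule, and 0.69 after centring, which makes 2 higher. Ppp1r15a (Gadd34) and Ddit3 (Gadd153), the GADD genes of the unfolded protein response, had log2 ratios of -0.09 and 0.06 with ECS and -0.06 and 0.11 with fluoxetine, and were named after their values were seen. Over all 8 lists, members left out, ECS gave 8 of 101 genes higher and 9 lower (median -0.10), and fluoxetine 8 higher and 7 lower (median 0.09), with shares over all genes of 3.84%, 6.47%, 8.49% and 3.26% in that order.

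**Figure D4:**
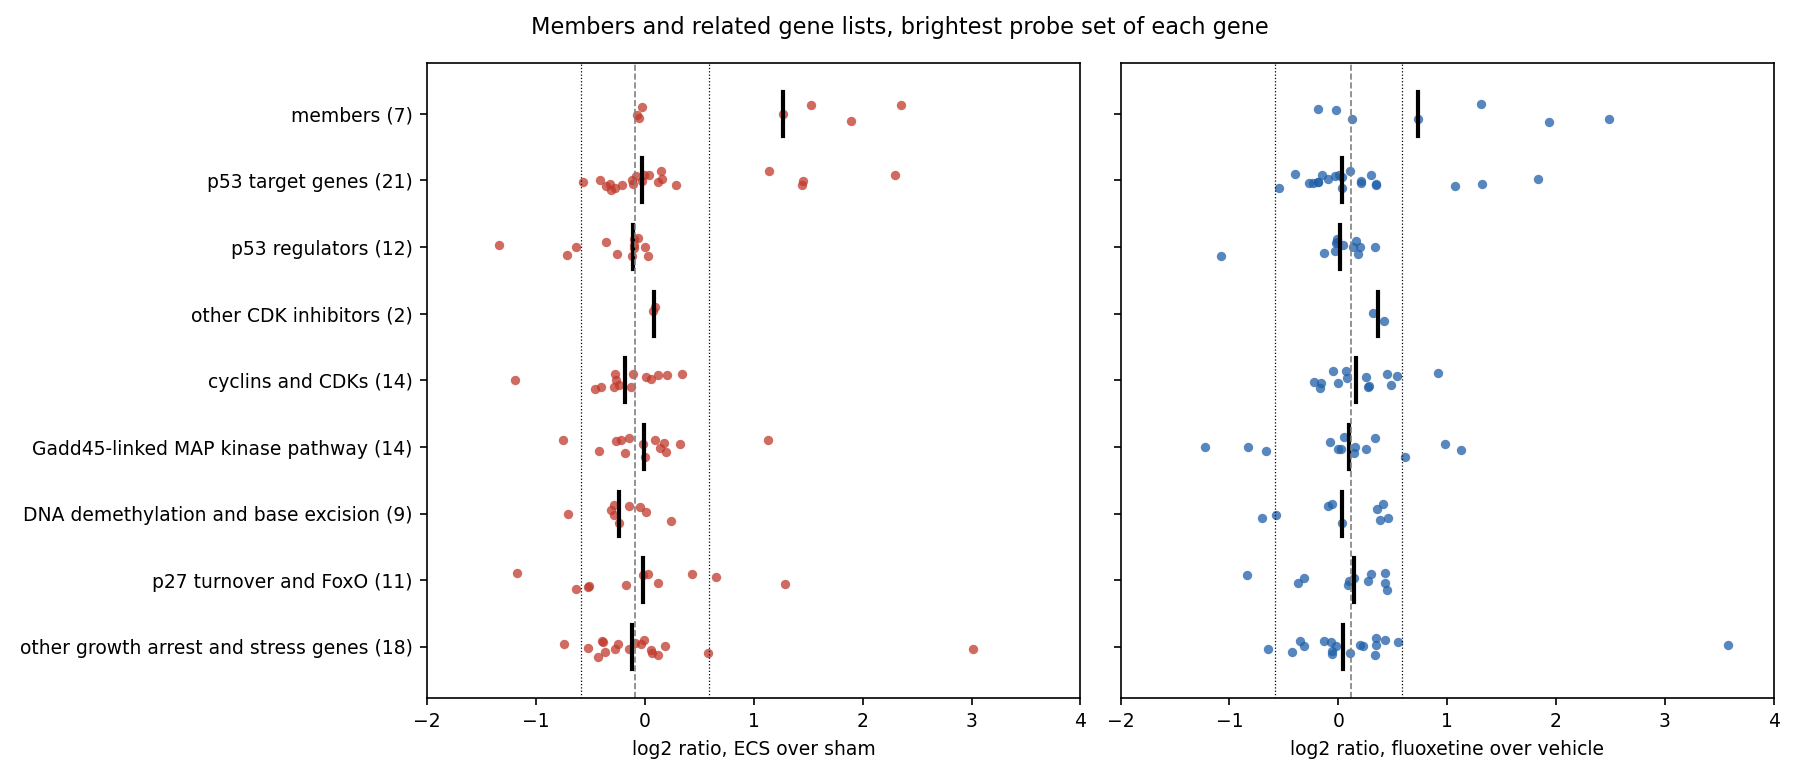
Log2 ratios of ECS over sham (left) and fluoxetine over vehicle (right) for the brightest probe set of each measured gene, 1 row for the members and for each of 8 gene lists with the number measured in brackets. Black bars are list medians, dashed lines the median over all genes and dotted lines 1.5-fold. The members' medians of 1.27 and 0.73 are the values of Gadd45a and Gadd45g, in each panel the lowest of the 4 members that were higher. They describe neither kind of member. Every list median lies between the dotted lines.

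The measured genes nearest to each member in the plane of both log2 ratios were listed for the 4 members that differed. For Gadd45b they were Gfap, the astrocyte filament protein (distance 0.13), S100a4, a calcium-binding protein (0.25), and Gal, the neuropeptide galanin (0.29). For Gadd45g they were Egr4, an immediate early transcription factor (0.18), Rasl11b (0.24) and Ighm (0.33). For Gadd45a they were Kif17, a dendritic kinesin (0.02), Arpp21, a cyclic AMP-regulated phosphoprotein (0.03), and Tmem158 (0.10), and for Cdkn1a they were Cd1d1 (0.23), Midn (0.27) and Sema3e, a secreted semaphorin (0.27). Each pattern rests on 4 arrays, and the distance is a description. Among the members, Gadd45a and Cdkn1a lay 0.67 apart, Gadd45b and Cdkn1a 1.00, and Gadd45b and Gadd45g 1.82, so no member was among the nearest genes of another.

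Cell type markers moved in part with these ratios. Of the 6 granule cell markers 4 were measured, but so were 4 of 6 pyramidal cell markers and 6 of 6 astrocyte markers. Being measured thus does not set granule cells apart from other cell types. The summed signal of the granule cell markers was 11.3 array medians in the ECS pool against 25.0 in the sham pool. It was 7.33 in the fluoxetine pool against 26.3 in the vehicle pool. Calb1, Dsp and Tdo2 were each lower in both comparisons, whereas Prox1 had log2 ratios of -0.19 and 0.22 (-0.08 and 0.09 after centring). In bulk tissue, fewer cells of a type and less RNA per cell cannot be told apart. Of the 6 astrocyte markers, Gfap was higher in both comparisons (log2 ratios 2.24 and 2.43) and Aqp4 with fluoxetine (0.86), and Slc1a3 was lower with ECS (-0.64, and -0.53 after centring), while the summed signal was 53.8 in both the ECS and sham pools, and 53.4 with fluoxetine against 50.6 with vehicle. Of the 6 microglia markers, 0 were past the size rule with ECS and 3 (Tyrobp, C1qa and C1qb) were higher with fluoxetine (C1qa 0.67, and 0.54 after centring), with sums of 15.0 and 14.9 for ECS and sham and 18.8 and 14.6 for fluoxetine and vehicle. The sums for pyramidal cells (20.4 with ECS and 20.1 in sham, 21.3 both with fluoxetine and vehicle) were nearly level, although 1 marker, Bok, was higher in both comparisons (0.83 and 0.85). Those of interneurons were 25.3 with ECS against 21.7 in sham and 23.6 with fluoxetine against 20.5 in vehicle, with Gad2 higher in both comparisons (0.73 and 0.97) and Vip with fluoxetine (0.93). Oligodendrocyte markers summed to 42.0 with ECS against 39.2 in sham and 38.8 with fluoxetine against 37.7 in vehicle, their precursors to 5.53 against 5.62 and 4.13 against 4.98, and endothelial markers to 2.67 against 2.32 and 2.30 against 2.18. Of these, the precursor marker Pdgfra was lower with fluoxetine (-0.62) and the endothelial marker Vwf higher (1.43). Rrm2 was the 1 of 6 dividing cell markers measured, with log2 ratios of 0.51 (0.62 after centring) and 1.10. Its sham and vehicle signals of 39.1 and 45.5 lay below 50, and with a floor there the ratios were 0.16 and 0.96. Rrm2 thus passed the signal filter only through its treated pools. No measured marker was at 0 on any array. The part of these differences in the ratios of Gadd45a, Gadd45b, Gadd45g and Cdkn1a was not tested.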

How the data were processed

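RNA of 4 DG pools was hybridized to mouse genome 430A 2.0 arrays, and the authors deposited MAS5 signal intensities, linear and without a common scale. Their genome build is not given in the sources used here. All 4 value columns were used. From these deposited intensities log2 ratios were computed with Python 3.11.15, numpy 2.4.6 and pandas 2.3.3, and matplotlib 3.10.9 for the figures. Signals of 0 were set to 0.1, although no measured probe set held any, and 64 control probe sets were left out. Of the other 22626, the platform annotation gives 20380 1 gene, 691 several and 1555 none, and no symbol differed from the current one of its gene identifier. Lists used the brightest probe set per gene. With 1 array per group no test was run, and the number of arrays limits the precision.

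Members and lists were chosen with earlier results of these data known. Every member probe set is named, as are up to 5 genes per list past 1.5-fold with the largest mean change and the 3 nearest genes of each member that differed. Steps were tested on simulated arrays. Alternatives were median-centring, quantile normalization, a floor of 50, a pseudocount of 16, other filters (any array at 50, none, mean of 200), 1.2-fold and 2-fold, exchanged control arrays, and averaging a gene's probe sets.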

Additional observations from a re-analysis of the deposited data

How the results depend on the processing

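Of the 4 member genes higher in each comparison, all 4 stayed higher with ECS under every scaling, floor, pseudocount and size rule tried and with the control arrays exchanged. With fluoxetine 3 stayed higher after quantile normalization and at 2-fold, Gadd45g being the one lost. A filter at a mean signal of 200 left 5 genes and 6 probe sets of the members, with 2 genes and 3 probe sets higher in each comparison, since it removes Gadd45a and Cdkn1a. With ECS 1 of 14 member probe sets was lower without a filter or with 1 array at 50, the dim Gadd45b probe set. Under the same 2 filters that probe set was higher with fluoxetine, where 7 of 14 were higher. At 1.2-fold 1 of 13 was lower with ECS and 1 with fluoxetine. Single member ratios moved by less than the control spread in 127 of 144 cases and by more in 17, and 10 of the 17 came from exchanging the control arrays. These cases were ratios of probe sets and, where a gene's probe sets were averaged, gene means set against the brightest probe set. For the gene lists, dropping the filter gave 15 of 123 genes higher with ECS, and 17 in the fluoxetine pool. A filter at 200 left 60 genes, with 4 higher and 3 lower with ECS and 2 higher and 3 lower with fluoxetine. At 1.2-fold 13 were higher and 34 lower with ECS, and 34 higher and 16 lower with fluoxetine. At 2-fold 3 were lower with ECS, and 5 higher and 2 lower with fluoxetine. No paired analysis was possible because each group is 1 pooled array, and for the same reason no array could be left out. The number of arrays limits the precision, as do, for Gadd45a and the dimmer Cdkn1a probe set, control signals near or below 50.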
